A study of Mus musculus with 7 samples.

Results

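Promoter sites inside CpG islands are the cytosines that the authors' tables annotate both as promoter and as CpG island. They numbered 1349 of 18189 sites in the rescue table and 1453 of 21989 in the knockdown table, and every such site was kept. The sites were measured by reduced representation bisulfite sequencing (RRBS), in which restriction enzymes enrich CpG-rich DNA and bisulfite treatment tells methylated from unmethylated cytosines in each read. All 7 libraries came from J1 mouse embryonic stem cells grown in serum with leukemia inhibitory factor. The rescue table holds 2 libraries of wild-type cells, 2 libraries of Uhrf1-/- cells, 1 library of Uhrf1-/- cells carrying wild-type human UHRF1 (wild-type rescue) and 1 library of Uhrf1-/- cells carrying human UHRF1 with K667R, K668R and K670R (3KR rescue). Per the series' design text, rescue plasmids encoded tagged protein, and colonies were picked after hygromycin selection, so a rescue library can stand for 1 clone. The knockdown table holds the same 2 wild-type libraries and 1 library with a stable Mof knockdown. How strongly Mof or UHRF1 was expressed was not analysed here. The groups with 1 library have no replicate, so their differences carry no test.

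CpG islands are stretches of DNA dense in CpG dinucleotides that span the start sites of many genes, and most of them are kept free of methylation in embryonic stem cells. UHRF1 recognises CpG sites methylated on a single strand after DNA replication and recruits DNMT1, the enzyme that copies the mark to the new strand, so it acts where methylation is already present. MOF is a lysine acetyltransferase, and the 3KR protein has 3 lysines changed to arginine. The series title links MOF, UHRF1 acetylation and methylation maintenance.

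The 1349 rescue-table sites lay at 244 transcript starts on 20 chromosomes and were summed into 221 gene promoters, with a median of 5 sites a promoter, and 33 promoters had a single site. All sites were within 1 kb of the assigned start, from position -951 to 994 relative to it, and 786 lay within 250 bases of it. Per the authors' annotation, 48.7% overlapped an exon, 48.9% an intron and 15.8% neither, with some sites in both. The knockdown table's 1453 sites formed 231 promoters, and 893 sites were common to both tables, 66.2% of the first and 61.5% of the second. Of the rescue-table sites, 762 belonged to transcripts that start within 500 bases of a RefSeq gene start on the same strand. Another 413 lay at other starts within 1 gene's span, 91 at starts that several genes could claim and 83 at starts with no gene, and these last 2 kinds were kept under their transcript.

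Some 300-base promoter windows of RefSeq (GRCm38.p6, 5′ to 3′ on the gene's strand) show what was read. Capitals mark each CpG with a promoter-island cytosine measured on either strand. Cacnb3 encodes a calcium channel beta subunit, Ndufaf1 an assembly factor of mitochondrial complex I, Hoxd3 a homeodomain transcription factor and Smc1b a meiotic cohesin subunit. Hoxd3 and Smc1b are shown as single examples of a developmental and a germline gene with little or no methylation. Cacnb3 and Ndufaf1 are shown because each holds a cytosine that differed from its neighbours, described at the end.
Cacnb3: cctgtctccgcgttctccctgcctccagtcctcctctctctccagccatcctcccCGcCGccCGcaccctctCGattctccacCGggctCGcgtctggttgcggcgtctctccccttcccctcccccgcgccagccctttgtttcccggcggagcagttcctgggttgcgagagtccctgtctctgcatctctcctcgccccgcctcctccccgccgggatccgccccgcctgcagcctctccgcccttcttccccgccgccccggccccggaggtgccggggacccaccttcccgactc
Ndufaf1: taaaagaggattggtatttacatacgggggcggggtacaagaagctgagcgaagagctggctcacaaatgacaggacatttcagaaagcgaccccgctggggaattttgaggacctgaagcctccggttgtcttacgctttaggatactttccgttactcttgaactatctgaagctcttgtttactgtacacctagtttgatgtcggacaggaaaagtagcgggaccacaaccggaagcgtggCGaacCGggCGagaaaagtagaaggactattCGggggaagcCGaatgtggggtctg
Hoxd3: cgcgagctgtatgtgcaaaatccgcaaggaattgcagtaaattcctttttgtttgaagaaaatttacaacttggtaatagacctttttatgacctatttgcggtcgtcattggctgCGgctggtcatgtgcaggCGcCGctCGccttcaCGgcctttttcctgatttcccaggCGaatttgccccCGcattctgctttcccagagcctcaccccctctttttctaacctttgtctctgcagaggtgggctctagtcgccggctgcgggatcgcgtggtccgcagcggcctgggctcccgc
Smc1b: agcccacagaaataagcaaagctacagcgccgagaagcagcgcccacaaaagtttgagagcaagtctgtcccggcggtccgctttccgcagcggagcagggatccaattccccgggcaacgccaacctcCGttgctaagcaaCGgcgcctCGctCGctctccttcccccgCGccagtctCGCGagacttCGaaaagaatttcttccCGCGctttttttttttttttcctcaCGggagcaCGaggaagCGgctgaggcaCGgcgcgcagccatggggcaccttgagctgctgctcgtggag
The Cacnb3 window is chr15:98634517-98634816 on the plus strand, with 6 of 29 CpGs in capitals from the knockdown table. The Ndufaf1 window is chr2:119662785-119663084 on the minus strand, with 5 of 17. The Hoxd3 window is chr2:74711743-74712042 on the plus strand, with 7 of 20 from the rescue table. The Smc1b window is chr15:85131908-85132207 on the minus strand, with 14 of 29, of which 7 cytosines were assigned to Smc1b and 7 to Ribc2, which starts there in the opposite direction. The rescue-table members reached 64 such windows, and all 262 member sites inside them were CpG cytosines. These windows held a median of 24 CpGs, against 15.5 in windows with promoter sites in island shores, 8 in windows with other promoter sites and 7 over all 32851 RefSeq windows. CCGG, the recognition letters of MspI, a common RRBS enzyme, occurred in 64 of the 64 windows, against 52.8% of all windows. CCGG reads the same on both strands, and no overlap with another motif was counted.

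Island promoters were almost free of methylation in wild-type cells, and the Uhrf1-/- means were lower still. The mean over the 1349 sites was 1.71% and 1.92% in wild type, against 0.77% and 0.85% in Uhrf1-/-, so the groups did not overlap. As group means these were 1.81% ± 0.15 and 0.81% ± 0.06 (SD, n = 2 each), a difference of -1.003 points. A two-sided exact permutation test gave p = 0.333, the smallest that 2 against 2 libraries allow. The median site was at 0% in every library, and between 83.2% and 88.1% of the sites had no methylated read. Sites at 20% or more numbered 35 and 47 in the wild-type libraries and 8 and 16 in the Uhrf1-/- libraries. A site could pass 20% with a single methylated read, since the lowest depth listed was 5 reads and the median depth of a member site was 13 to 20 reads a library.

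The other promoter classes stood far higher in wild-type cells. Promoter sites in island shores averaged 11.4% and 12.8% in wild type, against 2.28% and 2.45% in Uhrf1-/-. Promoter sites outside islands and shores averaged 51.2% and 53.7%, and 9.13% and 10.01% without Uhrf1. As a percent of the wild-type mean, 44.7% was left at island promoters and 18.2% at promoters outside islands and shores, a gap of 26.5 points (two-sided exact permutation p = 0.333, again the smallest possible). With at least 20 reads in every library that gap was 82.8 points, and the loss at islands shrank to -0.06 points. That minimum kept 149 island sites and none in Eif4a3l1 or Proser1, the promoters called below. How many of the 149 lie in the ribosomal block described below was not counted. Without Eif4a3l1 and Proser1, 67.8% of the wild-type mean was left at island promoters in Uhrf1-/-. At the 14 sites of these genes alone, 8.05% was left. In absolute terms the level that remained at island promoters was close to that of mitochondrial DNA, whose 39 sites averaged 0.77% and 0.80% in the Uhrf1-/- libraries and 1.46% and 0.41% in the wild-type libraries. The part of unconverted cytosines in either value was not tested.

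**Figure D1:**
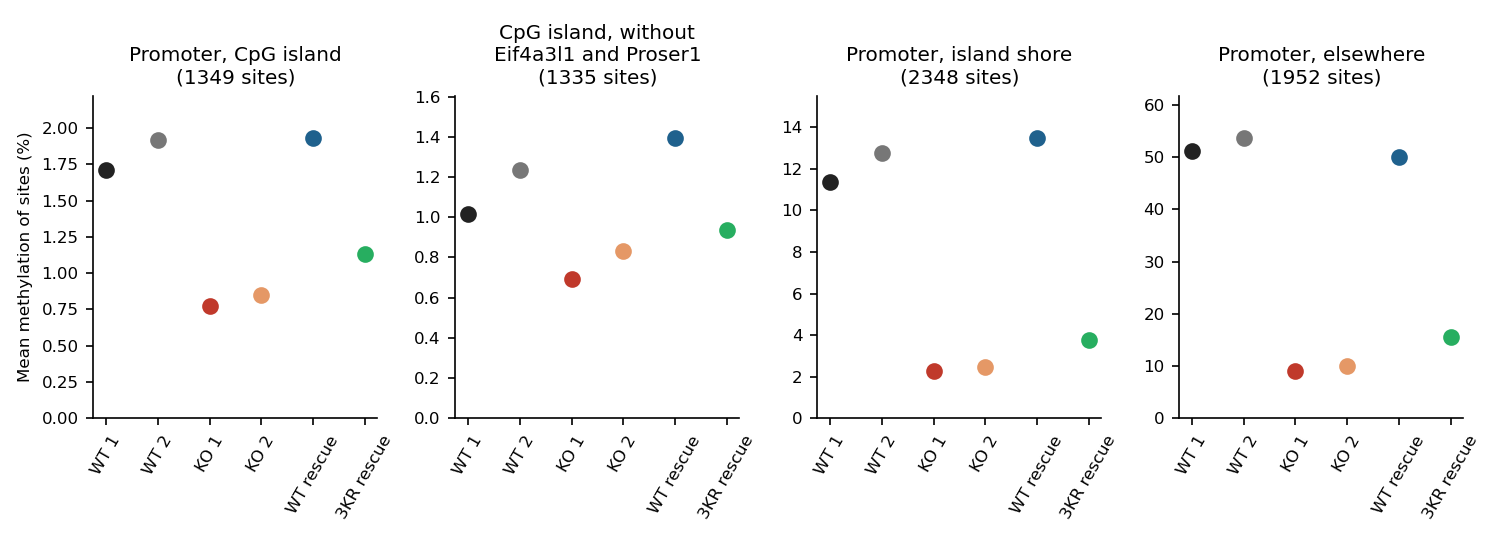
Mean methylation (%, y axis, a separate scale in each panel) of promoter sites in 6 libraries (x axis: WT, wild type; KO, Uhrf1-/-; the rescues), each point 1 library. Island promoters sit under 2% in every library, shores under 14% and other promoters at 9.13% to 53.7%, and in each panel the Uhrf1-/- libraries are the lowest.

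Of 556 island-promoter sites with at least 10 reads in the 4 libraries, edgeR's quasi-likelihood test (Benjamini-Hochberg adjusted p under 0.05 and at least 20 points) called 10 lower and 0 higher in Uhrf1-/-, which is 1.80%. Over all sites tested, 32.3% were called lower (background of 4603 sites) and 0.00% higher. At an unadjusted p under 0.05, 15 member sites were lower and 8 higher. With limma, 13 sites passed on the logit and 10 on the percent, all of them lower. A lower call needs a wild-type mean of at least 20%. Of the 1349 member sites, 35 and 47 reached that level in the wild-type libraries. In the wild-type mean 3 of 221 promoters did, so few could be called lower at all. Of the 556 sites, 304 had a methylated and an unmethylated read somewhere in the libraries fitted, which the test needs. All 10 called sites lay in 2 promoters, with 4 in Eif4a3l1 and 6 in Proser1. With any 1 of the 4 libraries left out, edgeR called 0 of the member sites (9 to 20 were lower at an unadjusted p under 0.05), but those smaller fits also called only 34, 28, 2 and 0 of all 4603 sites. In sums over promoters, edgeR called 2 of 193 lower and 0 higher, and they were Eif4a3l1 and Proser1. Over all promoters tested 24.2% were called lower and 0.00% higher. In the authors' deposited table, a q-value under 0.05 with a difference of at least 20 points marked 25 of the 1349 member sites as lower and 0 as higher, against 61.3% lower over all sites.

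Eif4a3l1 encodes a protein related to EIF4A3, the RNA helicase of the exon junction complex. Its 6 sites (chr6:136328530-136328568, mm10) are exonic per the authors' annotation and lie within the RefSeq gene span chr6:136327539-136329983. Their mean was 83.3% and 75.1% in wild type, 11.1% and 6.41% without Uhrf1, 77.6% with the wild-type rescue protein and 32.1% with 3KR. In this mean the wild-type rescue lay between the wild-type libraries, and the 3KR rescue lay between the Uhrf1-/- libraries and all others. The rescue mean includes the site at position 136328565, at 31.9% in that rescue and 0% in both wild-type libraries. At positions 136328553 and 136328568 the wild-type rescue stood below both wild-type libraries, at 86.5% and 77.0%. At the rest of the methylated sites it lay between them. The difference of Uhrf1-/- to wild type, -70.5 points, had an adjusted p of 0.00146 (edgeR). Reads summed over the 6 sites were 163 and 523 in wild type and 65 and 73 in Uhrf1-/-. They were 442 with wild-type UHRF1 and 47 with 3KR, where each site had 7 or 8. The pooled 3KR value of 31.9% had a 95% Wilson interval of 20.4% to 46.2%. Sites on 1 read are counted more than once in it, so the interval is too narrow.

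The sites of Eif4a3l1 were not alike. Of these, 5 stood at 87.6% to 100% in both wild-type libraries, but the cytosine at position 136328565 had no methylated read in either wild-type library, in either Uhrf1-/- library or in the 3KR rescue. In the wild-type rescue it stood at 31.9% of 72 reads. In the knockdown table, where 10 sites of the promoter are listed, the mean was 84.6% and 82.6% in wild type and 80.3% in the Mof knockdown, a difference of -3.28 points. Eif4a3l2, a RefSeq pseudogene listed in the knockdown table alone (4 sites, chr6:116551151-116551186), stood at 93.8% and 89.3% in wild type and 91.7% in the Mof knockdown. Eif4a3l1 and Eif4a3l2 are copies of Eif4a3, and how reads were shared between copies was not tested, so the assignment of these reads to either locus is uncertain.

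Proser1 encodes a proline and serine rich protein. Its 8 sites (chr3:53478854-53478976) are exonic and belong to a transcript that starts inside the gene (RefSeq span chr3:53463795-53481755), 725 to 847 bases downstream of that start, far from the start of that span. Their mean was 56.3% and 60.9% in wild type, 5.85% and 0% without Uhrf1, 34.8% with the wild-type rescue protein and 11.01% with 3KR. Wild type was the highest, the wild-type rescue stood in between and the 3KR rescue was near the Uhrf1-/- libraries. The difference of Uhrf1-/- to wild type was -55.7 points with an adjusted p of 0.00158 (edgeR). In the Mof knockdown the 7 sites listed averaged 25.0%, against 60.7% and 64.3% in wild type. That difference of -37.5 points was the most negative among the promoters with at least 3 sites and 30 reads, summed over sites, in every library. Each of the 7 sites had 8 reads in the knockdown library.

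**Figure D2:**
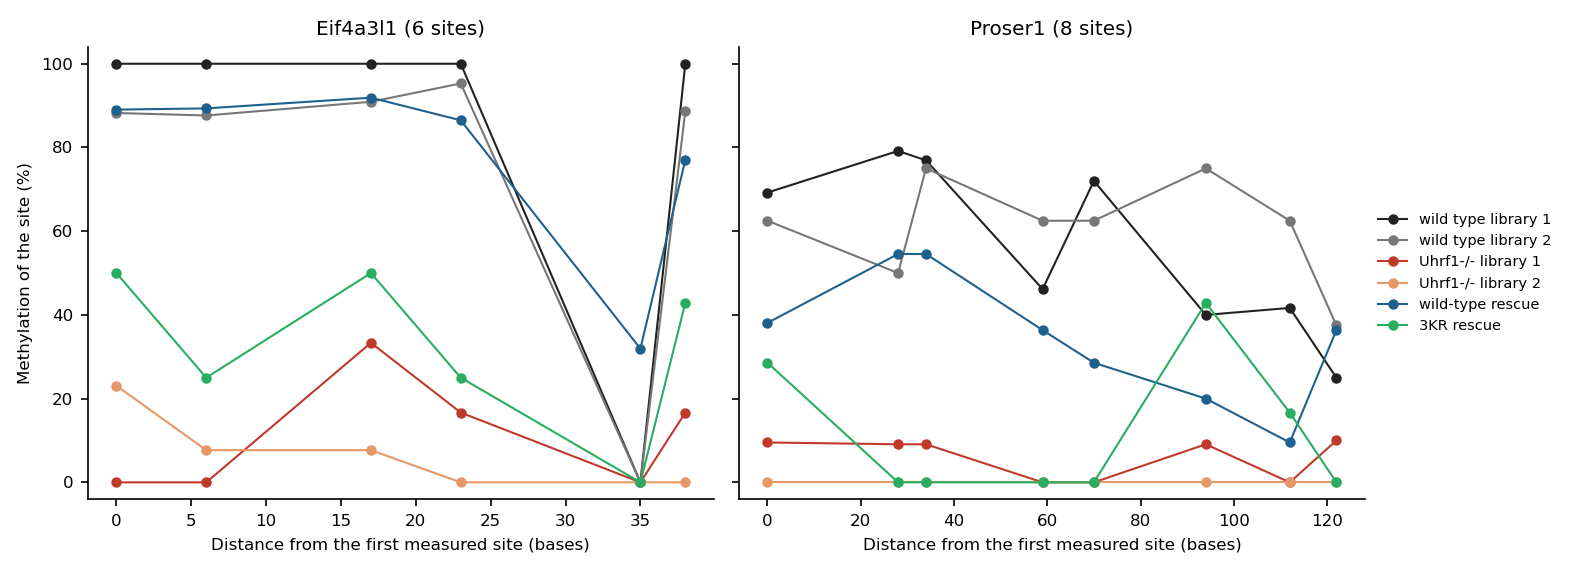
Methylation (%, y axis) of each measured site of Eif4a3l1 and Proser1 against its distance in bases from the first measured site (x axis), with 1 line for each of the 6 rescue-table libraries. Wild type is high at 5 of 6 Eif4a3l1 sites and at 25.0% or more at all Proser1 sites, Uhrf1-/- stays at or under 33.3% at every site shown, and the wild-type rescue alone is above 0 at the Eif4a3l1 site where the others are at 0%.

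Without either wild-type library edgeR called both promoters. Without either Uhrf1-/- library it called 0 of all 1227 promoters (3 and 6 island promoters were lower at an unadjusted p under 0.05), while the differences were then -72.8 and -68.1 points at Eif4a3l1 and -58.6 and -52.8 points at Proser1. Together the 14 sites of Eif4a3l1 and Proser1, 1.04% of the members, held 38.6% of the summed wild-type methylation and 64.2% of the summed loss. Without them the mean over the other 1335 sites was 1.02% and 1.23% in wild type, 0.69% and 0.83% without Uhrf1, 1.40% with the wild-type rescue protein and 0.93% with 3KR, and the loss was -0.36 points.

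Some other promoters were partly methylated in wild type but fell short of the test. Kcnc1, which encodes a voltage-gated potassium channel, had 2 intronic sites with means of 21.4% and 50% in wild type, 0% and 12.5% without Uhrf1, 27.8% with the wild-type rescue protein and 5.56% with 3KR. Its difference of -29.5 points had an adjusted p of 0.200 (edgeR). Isyna1, encoding inositol-3-phosphate synthase, stood at 25.7% and 10% over 2 sites in wild type, at 0% in both Uhrf1-/- libraries, at 23.3% with wild-type UHRF1 and at 0% with 3KR. Its difference of -17.8 points had an adjusted p of 0.0628 (edgeR). In both genes the wild-type rescue lay inside the wild-type range and the 3KR rescue inside the Uhrf1-/- range.

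Sites chosen on 1 wild-type library can be read in the others. The 35 sites at 20% or more in wild-type library 1 averaged 31.4% in wild-type library 2, 3.51% and 1.81% in the Uhrf1-/- libraries, 26.4% with the wild-type rescue protein and 11.4% with 3KR. The other 1314 sites averaged 1.13% in wild-type library 2, 0.70% and 0.83% in Uhrf1-/-, 1.28% with the wild-type rescue protein and 0.86% with 3KR. Choosing on wild-type library 2 instead gave 47 sites that averaged 23.1% in wild-type library 1, 2.96% and 1.96% in Uhrf1-/-, 20.3% with the wild-type rescue protein and 7.24% with 3KR. Whichever wild-type library chose the sites, the Uhrf1-/- means of the chosen sites were far below the other wild-type library. In the library that chose them the 35 sites averaged 43.5% and the 47 sites 39.7%, above the other wild-type library. Either choice took in all Proser1 sites and all but 1 site of Eif4a3l1, the promoters called above. The means of the chosen sites without these promoters were not computed.

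**Figure D3:**
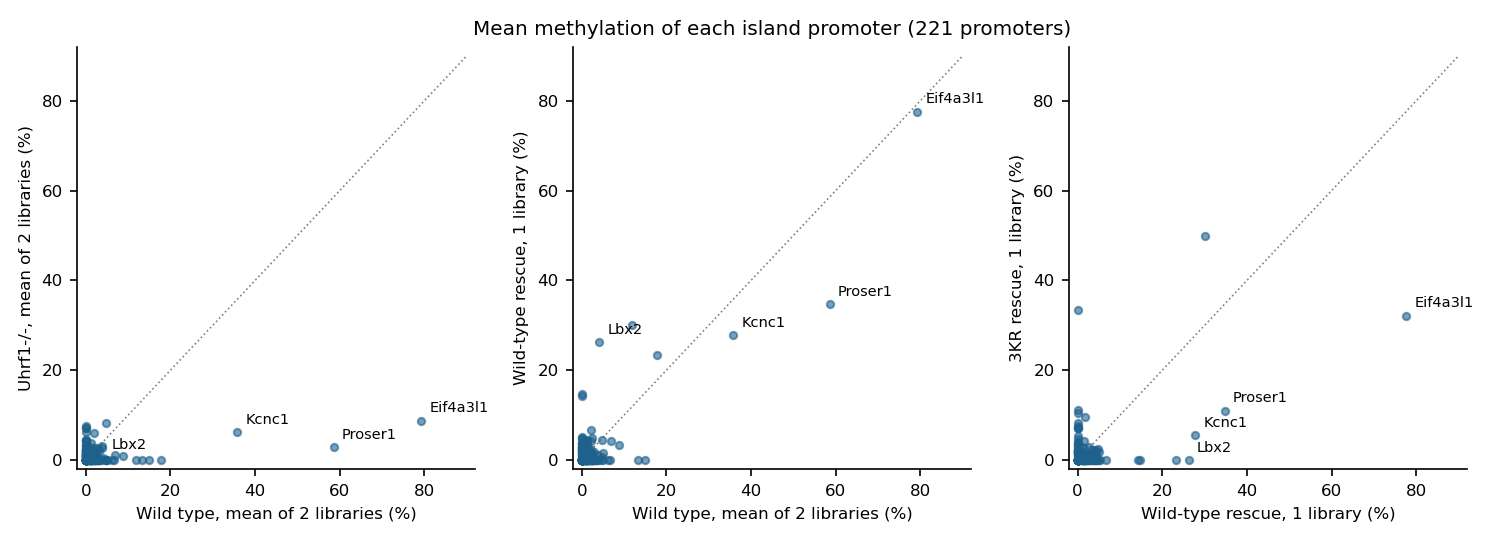
Mean methylation (%) of each of the 221 island promoters: wild type (x axis) against Uhrf1-/- and against the wild-type rescue, and the wild-type rescue (x axis) against the 3KR rescue, with the dotted line at equality. Most points sit near 0% on both axes, Eif4a3l1, Proser1 and Kcnc1 lie far to the right and low in Uhrf1-/-, and Lbx2 lies above the line in the wild-type rescue alone.

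Across promoters, 209 of 221 were under 5% in the wild-type mean, 7 were at 10% or more and 3 at 20% or more, which were Eif4a3l1, Proser1 and Kcnc1. The Uhrf1-/- mean was lower than wild type at 82 promoters, higher at 61 and equal at 78, with a median difference of 0 points. In 52 promoters no library had a methylated read, and 169 stayed under 5% in every library. Among the 132 promoters with at least 3 sites and 30 reads in every library, the next highest wild-type means after Eif4a3l1 and Proser1 were a start shared by several genes at chr8:105289932-105290034 (2.86% and 14.6%), Zfp541 (5.56% and 8.33%), Wnt3a (2.50% and 7.69%), Ntng1 (0% and 9.59%), Lbx2 (3.70% and 4.44%), Kntc1 (0% and 7.69%), Cadm2 (3.57% and 2.50%) and Alox12 (0% and 6.06%). In 7 of these 8 wild-type library 2 was the higher of the replicates. Zfp541 is a germ cell zinc finger gene, Wnt3a encodes a secreted WNT ligand and Ntng1 an axon guidance protein. In Uhrf1-/- these 3 stood at 0% and 2.38%, at 0% and 0%, and at 0% and 0%, none with an adjusted p under 0.05 (0.17, 0.26 and 0.18, edgeR).

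Among the same 132 promoters, the highest Uhrf1-/- means after Eif4a3l1 were low too. The potassium channel gene Kcnh5 stood at 4.76% and 2.86%, Efr3b at 0% and 6.67%, Kntc1 at 3.57% and 2.78%, and Proser1 followed. Kcnh5 was at 0% and 2.38% in wild type and at 0% in both rescues. No island promoter was called higher in Uhrf1-/-.

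Most measured developmental, pluripotency and housekeeping genes had little or no methylation in any library. Of 7 measured lineage transcription factors (Gata2, Hoxb7, Hoxd3, Otx1, Pax2, Pax7 and Tbx2), 6 stayed under 5% in every rescue-table library, and Otx1 and Tbx2 had no methylated read. Hoxd3 was at 0% in 5 libraries and 4.76% in wild-type library 2. Of 7 zinc finger genes, Zfp275, Zfp28, Zfp37, Zfp53 and Zfp689 stayed under 5%, Zfp622 reached 5.56% in wild-type library 2, and Zfp541 is given above. Sox2, a core pluripotency factor (1 site), the linker histone gene H1f0 (1 site), the imprinted gene Inpp5f (4 sites) and the germline gene Smc1b (7 sites) had no methylated read in any of the 6 libraries. Neither did Eif3g, Eif3h and Rps19, while Ndufaf1, Psmd4 and Mrpl40 stayed under 5%. The lists of translation and related genes held Eif4a3l1, which was called lower, and no other member of any list was called in either direction. The lists of DNA methylation machinery, protocadherins and trophoblast genes had no measured member. In the knockdown table, Zfp148, Zfp28, Zfp37, Zfp53, H1f0, Irx3, Otx1, Pax7, Esrrb, Sox2 and Eif3g had no methylated read in 3 libraries. Zfp275 had some in wild-type library 2 (2.22%) and Pax2 in wild-type library 1 (2.19%). The single Atp5o site stood at 20% in the Mof knockdown and had no methylated read in wild type.

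In the wild-type rescue the mean of island promoters was near that of wild type, and in the 3KR rescue it lay between Uhrf1-/- and wild type. The mean was 1.93% with the wild-type rescue protein and 1.13% with 3KR, each over the 1349 sites, where wild type was at 1.81% ± 0.15 and cells lacking Uhrf1 at 0.81% ± 0.06 (SD, n = 2 each). The wild-type rescue was 1.12 points above Uhrf1-/- and the 3KR rescue 0.32 points, and the 3KR rescue differed from the wild-type rescue by -0.80 points. Without Eif4a3l1 and Proser1 these 3 differences were 0.63, 0.17 and -0.46 points. At promoters outside islands and shores the same means were 49.98% and 15.6%.

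Sites at least 20 points apart were counted with at least 10 reads in the libraries compared. A fall of that size needs a starting level of at least 20%, which few island-promoter sites had. From wild type to Uhrf1-/-, 13 of 556 island-promoter sites were lower and 0 higher by this size alone, against 54.6% and 0.0652% of all sites, and 11 of the 13 lay in Eif4a3l1 and Proser1. From Uhrf1-/- to the wild-type rescue, 23 of 784 island-promoter sites were higher and 0 lower, against 61.0% and 0.122% of all sites, and 10 of the 23 lay in Eif4a3l1 and Proser1. From the wild-type rescue to the 3KR rescue, 19 of 889 were lower and 4 higher, against 57.0% and 0.966% of all sites. Of the 19, 5 were in Lbx2 and 4 in Proser1, and the rest were single sites in 10 promoters. From Uhrf1-/- to the 3KR rescue, 6 of 749 were higher and 0 lower, against 15.8% and 2.80% of all sites. From wild-type library 1 to library 2, 19 of 798 were higher and 5 lower, against 13.3% and 9.07% of all sites, so counts of this size also arise between replicates. Between the Uhrf1-/- libraries 8 of 921 were higher in library 2 and 3 lower, against 8.41% and 7.55%.

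Lbx2, a homeobox gene, was most above wild type in the wild-type rescue among the 132 promoters with at least 3 sites and 30 reads in every library. Its 9 sites (chr6:83087552-83087696, of which 2 are exonic and 7 intronic) averaged 3.70% and 4.44% in wild type, 1.11% and 0% without Uhrf1, 26.3% with the wild-type rescue protein and 0% with 3KR. The wild-type rescue stood above all other libraries, with 32 methylated of 123 reads summed over the sites (26.0%, 95% Wilson interval 19.07% to 34.4%). Each site had 5 or 6 reads in wild-type library 1, and 13 or 14 in the wild-type rescue. Sites on 1 read are counted more than once, so the interval is too narrow. Single sites reached 57.1% and 53.8% there, while 2 of the 9 stayed at 0%. Gata2, a haematopoietic transcription factor gene, had 3 sites averaging 14.8% with wild-type UHRF1 added back, 0% and 2.47% in Uhrf1-/- and 0% in wild type and in the 3KR rescue. Smaller excesses over wild type were seen at Efr3b (5.20%), Ganab (4.76%), Pax7 (3.81%) and Usp47 (3.70%), each at 0% in both wild-type libraries. Prmt8, a methyltransferase gene, was at 4.25% in the wild-type rescue, 0% and 1.18% in wild type and 0% in both Uhrf1-/- libraries. Ribc2, whose sites adjoin those of Smc1b in the window printed above, stood at 2.93% with wild-type UHRF1 added back and at 0% elsewhere. At least 10 points above each wild-type and Uhrf1-/- library stood 4 of 221 promoters in the wild-type rescue (Gata2, Lbx2, Map3k11 and Smarca2) and 2 in the 3KR rescue (Smarca2 and Smurf2). By the same measure among the 4 replicated libraries, 3, 3, 1 and 3 promoters stood above the other 3 libraries. Of wild-type rescue against wild type, 10 of 749 sites were higher and 7 lower, against 8.56% and 17.0% of all sites.

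In the other direction, among the 132 promoters with at least 3 sites and 30 reads in every library, the wild-type rescue was lowest against wild type at Proser1 (-23.9 points), the shared start on chromosome 8 (-5.43 points), Ntng1, Kntc1 and Wnt3a. Against Uhrf1-/-, in the same 132, the most negative differences of the rescue were -3.81 points at Kcnh5, -3.17 at Kntc1, -2.34 at Lhx1os and -2.92 at a start on chromosome 18 that several genes share. Lhx1os was at 0% in wild type and in that rescue.

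Among the same 132 promoters, the most negative differences of the 3KR rescue to the wild-type rescue were -45.5 points at Eif4a3l1, -26.3 at Lbx2, -23.7 at Proser1, -5.20 at Efr3b and -4.26 at Slc16a3, a lactate transporter gene. The 3KR rescue stood above the other rescue at Dnajc13, Alox12, Obsl1, Sinhcaf and Car11. Dnajc13, a gene of endosomal trafficking, had 7 sites at 9.66% in the 3KR rescue, 1.79% in the wild-type rescue, 1.30% and 0% in wild type and 0% and 2.20% in Uhrf1-/-, with 3 of its sites at 0% in the 3KR rescue. Alox12, Obsl1, Sinhcaf and Car11 stood between 3.32% and 4.76% in the 3KR rescue and between 0% and 1.48% in the wild-type rescue. Against Uhrf1-/-, the 3KR rescue was higher by 23.4 points at Eif4a3l1, 8.56 at Dnajc13, 8.09 at Proser1, 4.76 at Alox12 and 4.17 at Car11. In these 132 promoters it was lower by at most 3.81 points, at Kcnh5, Efr3b, Kntc1, Odf3b and the shared start on chromosome 18.

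A block of member sites on chromosome 17 carried a large share of the reads. These 140 sites (126 in the knockdown table) lie at chr17:39843311-39848710, around the RefSeq pseudogene Rn18s-rs5, a copy of the 18S ribosomal RNA unit, and their single-site depth reached 2020 reads while no other member site passed 169. Such sequence is repeated many times in the genome, so these values are sums over copies. They took 40.6% and 46.3% of the member reads in wild type, 85.5% and 84.6% without Uhrf1, 57.5% in the wild-type rescue, 52.6% in the 3KR rescue and 25.8% in the Mof knockdown. The highest shares were those of the Uhrf1-/- libraries, and the lowest that of the Mof knockdown.

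Methylation of the ribosomal block was low and the wild-type rescue stood apart. The pooled share of methylated reads was 1.42% (95% Wilson interval 1.23% to 1.63%) and 1.00% (0.86% to 1.17%) in wild type, 1.05% and 1.14% without Uhrf1, 1.32% (1.18% to 1.48%) in the 3KR rescue and 2.49% (2.33% to 2.65%) in the wild-type rescue. The last interval did not meet any of the others, although intervals cover counting error only and sites on 1 read are counted more than once. The wild-type rescue was above the wild-type mean at 93 of the 140 sites, below it at 31 and equal at 16. Without this block the wild-type rescue averaged 1.84% over island promoters and wild type 1.75% and 1.98%, so the small excess of 0.12 points over wild type became -0.03 points. In the Mof knockdown the block stood at 0.85% of pooled reads, against 1.42% and 0.94% in wild type.

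**Figure D4:**
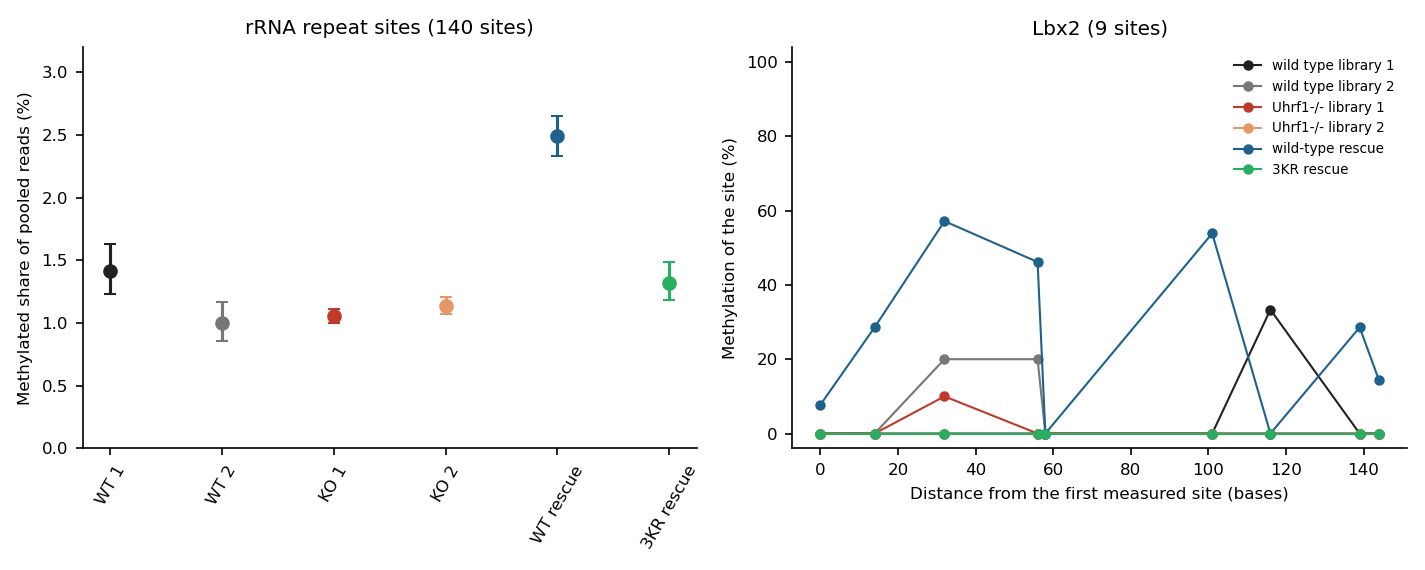
Left, methylated share of pooled reads (%, y axis) over the 140 ribosomal sites in each rescue-table library (x axis), with 95% Wilson intervals that cover counting error only; right, methylation (%, y axis) of each Lbx2 site by its distance in bases from the first (x axis). The wild-type rescue is the highest library at left, at 2.49%, and reaches 57.1% at right where the 3KR rescue stays at 0%.

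Island promoters differed little between the Mof knockdown and wild type. The mean over 1453 sites was 2.39% and 2.38% in wild type and 2.19% in the knockdown, a difference of -0.20 points. Without Eif4a3l1, Eif4a3l2 and Proser1 it was 1.28% in both wild-type libraries and in the knockdown, a difference of 0.01 points. At promoter shores the means were 13.4% and 15.0% in wild type and 11.9% in the knockdown, and at promoters outside islands and shores 52.6% and 54.1% against 42.5% (53.5% and 55.1% against 43.2% without the mitochondrial sites that this class holds). As a percent of the wild-type mean that is 91.7% at islands, 84.1% at shores and 79.7% elsewhere, a difference that was not tested. Of 624 island-promoter sites with at least 10 reads, 1 was lower by at least 20 points and 9 higher, against 21.2% and 4.34% of all sites. Of the 1453 member sites, 45 were at 20% or more in each wild-type library, so few could fall that far. Between the wild-type libraries 8 of 868 were lower and 8 higher, against 8.91% and 13.9%.

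By promoter, the knockdown was lower at 88, higher at 47 and equal at 96 of 231, with a median difference of 0 points. Wild type is a mean of 2 libraries here and the knockdown is 1 library. A stray methylated read can thus raise the wild-type mean more often, so these counts do not show a direction. Among the 147 promoters with at least 3 sites and 30 reads in every library, the most negative differences after Proser1 were at Wnt3a (4.11% and 6.15% in wild type, 0% in the knockdown), Tnrc18 (4.76% and 3.57%, then 0%), Eif4a3l1 and Cadm2 (3.57% and 2.50%, then 0%). In the same 147 the largest positive differences were at a start several genes share (1.92% and 0%, then 11.1%), B4galt6 (0% and 0%, then 5.56%) and 2 further starts that several genes share (0% and 0%, then 5.00%). They were followed by Ilk, which encodes integrin-linked kinase (1.19% and 3.51%, then 6.67%). Kcnc1 stood at 60% in the knockdown, against 21.4% and 50%, over 2 sites. Member sites had a median of 10 reads in the knockdown library, against 16 and 14 in wild type, so 1 read weighs more there.

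Some island promoters of the knockdown table were methylated at a single cytosine. At 5 member sites methylation was at 80% or more in all 3 libraries while every listed cytosine within 50 bases on the same strand was under 20%. They lay in Cacnb3, Fa2h, Ndufaf1, Poc1b and Rab43, and all 5 are among the 10 highest wild-type means of the 147 promoters with at least 3 sites and 30 reads in every library of that table. Poc1b encodes a centriolar protein and Rab43 a small GTPase. The lone cytosine is shown in capitals with its guanine, in 41 bases of RefSeq (GRCm38.p6), 5′ to 3′ on the minus strand that was read; no such window was on hand for Fa2h.
Cacnb3: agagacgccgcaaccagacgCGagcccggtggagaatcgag
Ndufaf1: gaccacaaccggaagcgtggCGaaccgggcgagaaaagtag
Poc1b: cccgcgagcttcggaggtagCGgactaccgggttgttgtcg
Rab43: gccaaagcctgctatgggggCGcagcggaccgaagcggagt
The windows are chr15:98634587-98634627, chr2:119662820-119662860, chr10:99106912-99106952 and chr6:87812352-87812392. The Cacnb3 site was at 100% in all 3 libraries (25, 23 and 28 reads), while its 5 neighbours reached at most 4%. The Ndufaf1 site was at 100% in all 3 (8, 7 and 5 reads) with its neighbours at 0%. The Rab43 site was at 100% in all 3, the Poc1b site at 100%, 85.7% and 100%, and the Fa2h site at 100%, 93.8% and 100%. Each lone site was the last measured position at an edge of its cluster, and it was read 0.36 to 0.53 times as often as the median neighbour. In Cacnb3, Ndufaf1 and Poc1b, CCGG followed 5, 4 and 7 bases after the lone cytosine. Of 260 island-promoter sites of that table with such a window, 11.2% had CCGG in the next 20 bases, and Rab43 had none. No member site of the rescue table met the same criteria, and none of the 5 positions is listed there. In Cacnb3 the 5 neighbours are listed in the rescue table and stood at 0% to 8.79%. In all, 66 sites of the knockdown table were of this kind. The part of the cluster edge in these values was not tested. They made up 14.1% of the summed wild-type methylation of the knockdown-table members, and without them the difference of Mof knockdown to wild type was -0.21 points.

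**Figure D5:**
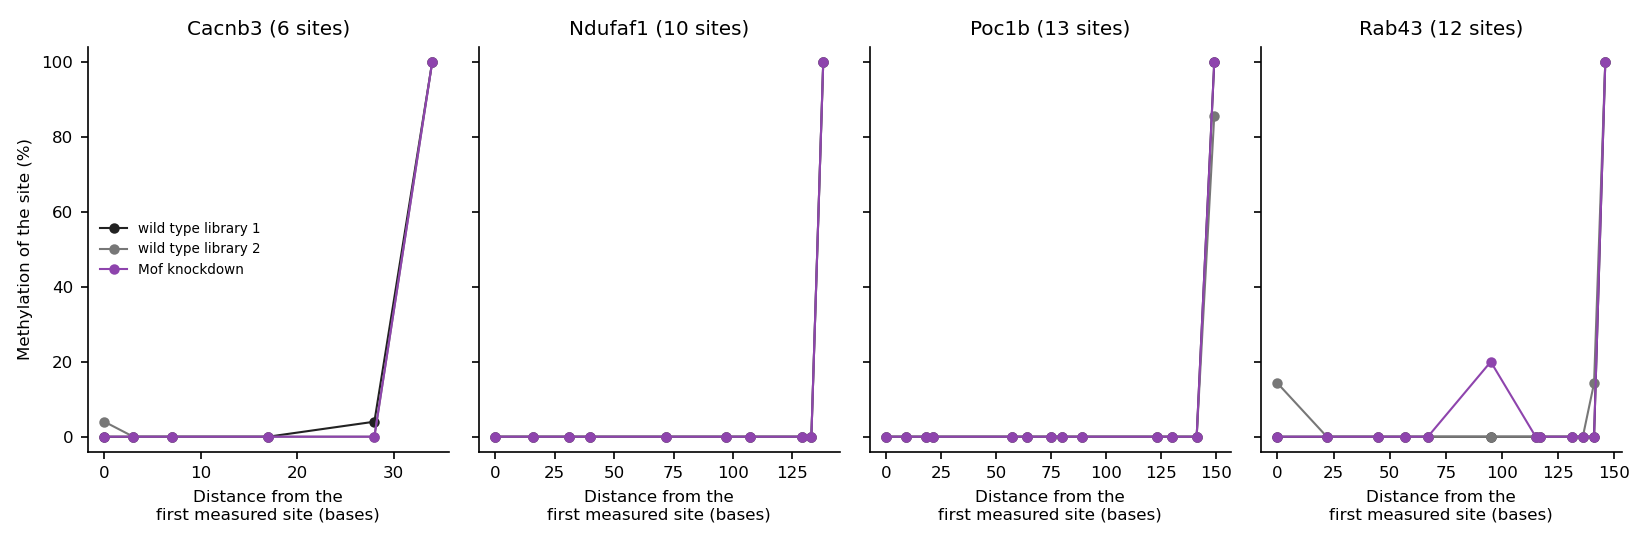
Methylation (%, y axis) of each measured site of 4 island promoters by distance in bases from the first (x axis), in the 3 libraries of the knockdown table. The last site of each promoter stands at 85.7% to 100% in the 3 libraries, and the sites before it stand at or under 20%.

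Without the most methylated promoters, levels were low at every distance from the start. Without Eif4a3l1 and Proser1, rescue-table sites within 250 bases of the start averaged 0.95% and 1.04% in wild type (780 sites), those beyond that and up to 500 bases away 1.34% and 1.38% (320 sites), up to 750 bases away 0.93% and 1.32% (162 sites) and up to 1000 bases away 0.48% and 2.50% (73 sites). In Uhrf1-/- the same bins stood between 0.42% and 1.32%. Sites whose start matched a RefSeq start on the same strand averaged 0.87% and 0.92% in wild type and 0.73% and 0.66% in Uhrf1-/-. Sites at other starts averaged 2.81% and 3.22% in wild type and 0.83% and 1.10% in Uhrf1-/-, and this second set holds Eif4a3l1, Proser1 and the ribosomal block.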

How the data were processed

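Methylated cytosine counts and read coverage counts per site and library are the authors' deposited values, and the deposited tables also hold the methylation level as a fraction, differences as a score, and p-values and q-values. Per the submitters' processing notes, the tools included BSMAP 2.73, Trim Galore and cutadapt and the build was mm10, while settings and the caller were not given in the sources used here. No site listed had under 5 reads in any library of its table. The percentage of methylated reads was computed here per site, and class levels are unweighted means over sites. Intervals (95%, Wilson) cover counting error only.

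Methylated and unmethylated counts were tested with edgeR 4.0.16 (R 4.3.3, quasi-likelihood) over all sites of the rescue table with at least 10 reads in the 4 libraries compared, with the 6 libraries sharing 1 spread, and adjusted by Benjamini-Hochberg over the whole table. limma 3.58.1 was an alternative, and the scripts were tested on simulated data. Other values used Python 3.11.15. Named promoters had at least 3 sites and 30 reads in every library, with reads summed over the sites. They were the 10 highest in wild type, those called, the 5 highest in Uhrf1-/- and the 5 with the largest difference each way, for each difference. Smaller promoters such as Kcnc1, Isyna1, Gata2 and Smarca2, the ribosomal block and the lone sites were chosen after their values were seen. Members and lists were chosen with earlier results of these data known. Some promoters that the naming rule or a list takes in are not reported here. Nothing in the labels ties the replicate libraries to different cultures, and the spread behind each p-value may be technical. Per site, replicates differed by a chi-square of 2.30 in wild type and 1.95 in Uhrf1-/-, above the 1 of read sampling where each read is a separate fragment. At the Proser1 sites of the Mof knockdown, methylated reads numbered 4, 0, 4, 2, 2, 2 and 0 of 8, all even. Other sites also had odd counts. Whether a fragment was counted more than once was not tested, so these values do not show spread beyond sampling. The read numbers given here may exceed the number of separate fragments. Alternatives were other read minimums, pooled reads, means over genes, no deepest 1% of sites, autosomes and each library left out.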

Additional observations from a re-analysis of the deposited data

Results flagged for a closer look

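Mitochondrial cytosines, which no comparison of the Mof knockdown took on their own, stood out in that library. The mean over the 43 sites of the knockdown table was 7.08% there, against 1.33% and 0.38% in the wild-type libraries. As a share of pooled reads these were 3.25%, 0.82% and 0.63%, from 2618, 7396 and 20276 reads. Island promoters without Eif4a3l1, Eif4a3l2 and Proser1 stood at 1.28% in all 3 libraries. What gave the mitochondrial value was not tested.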

How the results depend on the processing

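The difference of Uhrf1-/- to wild type kept its direction under every alternative run, and lay between -1.11 and -0.90 points with 1 library left out. Its size did not hold in all of them. It was -0.06 points with at least 20 reads, smaller than the wild-type SD of 0.15, and -0.36 points without Eif4a3l1 and Proser1. The 10 sites called became 0 with at least 20 reads (159 sites tested) and 0 with any 1 library left out, and 9 to 14 in the others but the block below. The 14 came with no size threshold and were 12 lower and 2 higher. No site of Eif4a3l1 or Proser1 had 20 reads in every library, so the minimum of 20 reads left out all the called sites. The 2 promoters called ranged from 0 to 2 with 1 library left out. With a replicate block 4 sites and 2 promoters were called, but the numbers do not pair the libraries: deviations of same-numbered libraries correlated at 0.003 over all sites. With at least 10 reads, at least 20 reads, pooled reads, means over genes, and without Eif4a3l1, Eif4a3l2 and Proser1, the wild-type rescue minus Uhrf1-/- was 1.32, 1.25, 1.55, 1.00 and 0.63 points, 3KR minus wild-type rescue was -1.12, -1.02, -1.42, -0.49 and -0.46, and 3KR minus Uhrf1-/- was 0.21, 0.23, 0.13, 0.51 and 0.17. The Mof difference was then -0.20, -0.40, -0.91, -0.083 and 0.0053, and -0.18 without the deepest sites, -0.19 on autosomes, -0.18 without the ribosomal sites and -0.21 without lone sites. The wild-type rescue minus wild type was 1.20 with at least 20 reads, 0.41 pooled, -0.027 over genes, -0.029 without the ribosomal sites and 0.27 without the 3 promoters. The cause of these changes was not tested. With 1 library left out, the ranges were 1.08 to 1.16 for the wild-type rescue minus Uhrf1-/-, 0.28 to 0.36 for 3KR minus Uhrf1-/-, 0.02 to 0.22 for the wild-type rescue minus wild type, -0.20 to -0.19 for Mof, and 24.5 to 28.7 points for the gap in percent left. Most member sites had few reads, so small differences at single sites were not detectable at this depth.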
